A study of Mus musculus with 15 samples.

Results

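Pifithrin-alpha, a small molecule known as an inhibitor of transcription driven by p53, was compared with vehicle in motor neurons of mice with spinal muscular atrophy (SMA). The comparison rests on 6 of the 15 libraries of the series, chosen by their labels: 3 from SMA pups given Pifithrin-alpha and 3 from SMA pups given vehicle. All of these pups had the genotype Smn-/-;SMN2;SMNdelta7 on an FVB background, so both groups lacked mouse Smn and carried the same human transgenes. The WT littermates used as a reference were Smn+/+;SMN2;SMNdelta7 and received vehicle, so they carried those transgenes too. Pifithrin-alpha was injected into the peritoneum once a day from postnatal day 0 at 2.2 mg/kg, and tissue was taken at postnatal day 6 from both sexes. Motor neurons of lumbar segments L1 to L3 had been traced with cholera toxin subunit B and cut out by laser capture, and their polyadenylated RNA was amplified and sequenced. The 3 samples of a group are called biological replicates in the labels, which do not say whether a sample pools several pups. The other groups of the series, SMA pups given the p38 inhibitor MW150 or the SMN2 splicing modifier SMN-C3, entered the fit and are referred to only in passing. Libraries are called by group and replicate, such as SMA 1, and PFT 1 to PFT 3 stand for the treated ones.

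The transcription factor p53 is held low in healthy cells by the ubiquitin ligase Mdm2, which is itself a p53 target and so closes a negative feedback loop. When p53 is stabilised it binds pairs of a short palindromic element near its target genes and raises genes for growth arrest, cell death, DNA repair and metabolism, of which Cdkn1a, encoding the kinase inhibitor p21, is the best known. In SMA, loss of SMN is known to activate p53 in the motor neurons that degenerate first. Pifithrin-alpha is also known to act on the heat shock response, on glucocorticoid receptor signalling and on the aryl hydrocarbon receptor, and gene lists for these were therefore read beside the p53 targets.

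Values are TPM, the share of a transcript among all transcripts per unit length, divided by a size factor per library, called scaled TPM below, and differences are SMA+Pifithrin-alpha minus SMA on the scale of log2(scaled TPM + 1). On that scale the change of a gene with low values is understated. The libraries matched their labels for the targeted gene: Smn1 stood at 0.430 in SMA 1 and was listed at 0 in SMA 2 and SMA 3, it stood at 0.372, 0.728 and 0.338 in PFT 1 to PFT 3, and it reached 11.6, 17.7 and 21.9 in WT 1 to WT 3. Motor neuron identity was present in every library, and none of the 19 genes of that list was at 0 in any SMA or treated library. Markers of glia, of vessels and of red blood cells were present as well, with values given where they bear on a result. The number of reads behind each value is unknown, since TPM keeps no depth. PFT 3 had 12311 genes with at least 1 TPM, the fewest of the 15 libraries, against 13539 to 14916 in SMA libraries. It also had the smallest size factor (0.627), and mt-Co3 alone held 8.6% of its TPM.

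PFT 3 was less like the other treated libraries than the SMA libraries were like one another, while PFT 1 and PFT 2 were as alike as those. Pearson's r between libraries, taken across genes, was 0.951 to 0.961 among the SMA libraries, and 0.960, 0.908 and 0.943 between PFT 1 and 2, PFT 1 and 3, and PFT 2 and 3. The 13 mitochondrially encoded protein genes held 3.76%, 7.15% and 5.88% of all TPM in SMA 1 to SMA 3, against 5.78%, 12.6% and 20.4% in PFT 1 to PFT 3. The group means, 5.599% ± 1.72 and 12.9% ± 7.32 (SD, n = 3 each), gave p = 0.3 in an exact two-sided permutation test (0.1 is the smallest value that 3 against 3 can give). All 13 of these genes had a higher mean in treated libraries, with a median log2 difference of 1.15 (0.54 without PFT 3), and all 13 overlapped between the groups.

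Across 15363 genes with an annotated length, the log2 difference followed the GC content of the transcript, with a Spearman coefficient of -0.60 across genes, which are not independent replicates. In 5 equal classes of genes with median GC contents of 42.0%, 46.5%, 50.2%, 54.0% and 58.2%, the median difference between treated and SMA libraries was 0.52, 0.23, -0.02, -0.22 and -0.39. Each library contributed unequally. From the lowest to the highest GC class, the median difference from the SMA mean ran from 1.02 to -0.82 in PFT 3, from 0.44 to -0.25 in PFT 2 and from 0.07 to -0.07 in PFT 1. WT 1, the other library with a high mitochondrial share (21.9%), ran from 1.10 to -0.75. The part that this gradient plays in any result was not tested. The lists and genes were also computed after a smooth trend on transcript length and GC content had been removed from each library, and these values are given beside most of the others as trend-removed values.

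**Figure D1:**
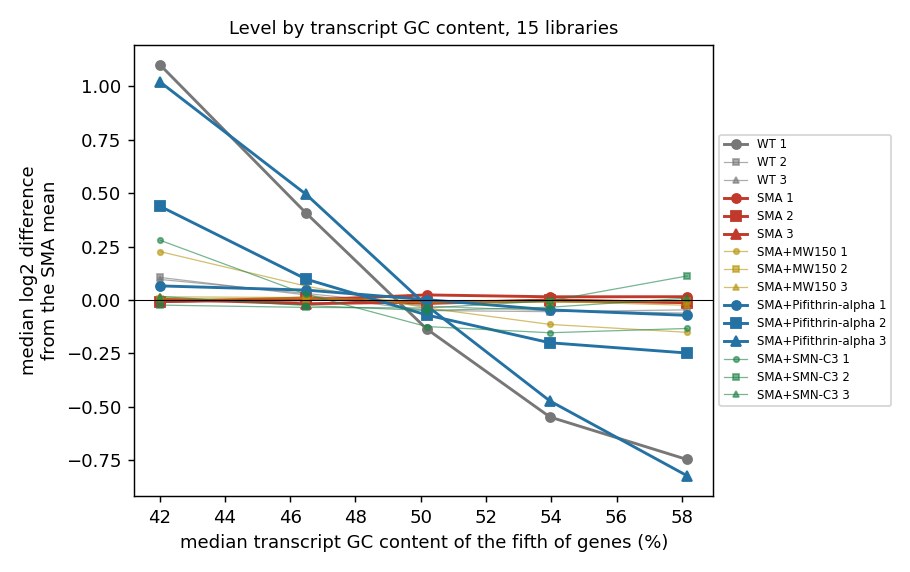
Median log2 difference from the SMA mean (vertical axis) for 5 classes of genes by median transcript GC content in percent (horizontal axis), 1 line per library, with the SMA libraries in red, the treated ones in blue and WT in grey. PFT 3 and WT 1 slope from 1.02 and 1.10 down to -0.82 and -0.75, PFT 2 slopes less, and PFT 1 lies close to the SMA libraries.

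Of 36144 genes in the table, 15425 had at least 1 TPM in at least 3 of the 15 libraries and were tested with limma. At a Benjamini-Hochberg adjusted p under 0.05, 1 gene was lower with Pifithrin-alpha (0.00648% of those tested) and 0 were higher. Without adjustment, 786 genes were lower (5.1%) and 954 higher (6.18%) at p under 0.05. The 3 treated libraries lay all below the 3 SMA libraries for 1513 genes (9.81%) and all above for 1053 (6.83%). Genes that lay all above had a median transcript length of 3193 bases and a median GC content of 44.4%, and genes that lay all below had 1583 bases and 55.5%, against 2215 bases and 50.2% over all tested genes. With the trend removed, 960 genes lay all below (6.22%) and 850 all above (5.51%). The median difference over all tested genes was -0.03, and without any scaling it was -0.22.

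The called gene was Traj45, a joining segment of the T cell receptor alpha locus, at chr14:54172828-54172890 on the plus strand of GRCm38. It stood at 5.84, 7.34 and 6.73 scaled TPM in SMA 1 to SMA 3 and was listed at 0 in the other 12 libraries, treated and WT alike. Its fitted difference was -2.93 (SE 0.28, limma adjusted p = 1.48e-04), a size that depends on the pseudocount since one side is listed at 0. The call was lost with a pseudocount of 0.1 (adjusted p = 0.115), in a fit of only the 6 libraries (0.101) and with the trend removed (0.0558). Without any one of the SMA libraries the gene no longer passed the filter and was not tested. The annotated transcript has 63 bases, fewer than the 100 bases of a read, and none of its stretches of 31 bases occurs in a transcript of another gene in GENCODE M21. It is printed whole because the annotated segment is shorter than a read, and no base is marked.
Traj45: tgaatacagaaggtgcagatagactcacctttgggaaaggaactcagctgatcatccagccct
Per transcript, 41719 were tested and 2 were called (0.00479%, beside 8.57% at an unadjusted p under 0.05), both lower: that of Traj45, and Ankrd40-204, a retained-intron transcript named here after its values were seen. Ankrd40-204 stood at 5.17, 5.24 and 5.98 in SMA 1 to SMA 3 and was listed at 0 in all 3 treated libraries (limma adjusted p = 0.0242).

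The p53 targets were read in 4 lists, with 49 of 50 genes tested. No target passed the test at an adjusted p under 0.05, the smallest adjusted p in the 4 lists being 0.44. Of the 49, 33 had a lower and 16 a higher mean with Pifithrin-alpha, against 8018 lower and 7398 higher of all tested genes. The median difference was -0.24, beside -0.03 for all tested genes. Treated libraries lay all below SMA for 9 targets (18.4%, against 9.81% of all genes) and all above for 2 (4.08%, against 6.83%). The 9 that lay all below had a median GC content of 56.7%, and the 16 with a higher mean had 47.7%. With the trend removed, 32 of 49 were lower, 5 of 49 lay all below and 3 of 49 all above. In that setting 6.22% of all genes lay all below and 5.51% all above. Without PFT 3, 35 were lower and 9 lay all below, but with 2 treated libraries 13.6% of all genes lay all below.

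Among the targets for feedback and growth arrest, Cdkn1a had the largest negative difference. Cdkn1a, on the plus strand of chromosome 17, stood at 1329, 1014 and 535 scaled TPM in SMA 1 to SMA 3, at 582, 508 and 310.3 in PFT 1 to PFT 3, and at 46.2, 50.7 and 42.0 in WT 1 to WT 3. The treated libraries were below SMA 1 and SMA 2, PFT 1 overlapped with SMA 3, and all 3 lay above the WT libraries. The difference was -0.99 (SE 0.32), with an unadjusted p of 0.00627 and a limma adjusted p of 0.44, and -0.72 with the trend removed. Against WT, Cdkn1a was called in SMA (log2 4.25, adjusted p = 2.02e-06) and in treated libraries (3.26, adjusted p = 1.02e-04). These comparisons share libraries and are given side by side only. Both abundant protein-coding transcripts of the gene had lower means with treatment, Cdkn1a-202 at 606 ± 313 in SMA and 265 ± 81.3 in treated libraries, and Cdkn1a-201 at 348 ± 92.8 and 198 ± 70.7 (SD, n = 3), and neither was called (limma adjusted p = 0.58 for each).

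Mdm2 and Ccng1, both long-known p53 targets, had no lower mean with treatment at the gene level. Mdm2 stood at 46.9, 22.9 and 36.2 in SMA and at 37.2, 32.7 and 45.0 in treated libraries (difference 0.16, SE 0.28, limma adjusted p = 0.82), with a sign that turned without scaling (-0.10). By transcript, the mean of protein-coding Mdm2-201 was 21.55 in SMA and 17.1 in treated libraries (difference -0.26). Mdm2-209, annotated as nonsense-mediated decay, had means of 3.76 and 12.1 (1.02), with 1.27, 13.9 and 21.3 in PFT 1 to PFT 3. Neither transcript was called. Ccng1, encoding cyclin G1, stood at 88.5, 41.5 and 52.8 in SMA and at 55.1, 86.0 and 124 in treated libraries (0.53, SE 0.34, adjusted p = 0.51), and at -0.02 with the trend removed. For both genes the groups overlapped, and the 3 treated libraries were all above the WT libraries, which reached at most 14.2 for Mdm2 and 27.6 for Ccng1. Of the rest of this list, Ppm1d, a phosphatase that shuts p53 signalling off, lay all below SMA with 11.1, 8.77 and 6.97 against 5.66, 2.65 and 6.67 (-0.78, and -0.83 with the trend removed). Plk3, a stress-responsive kinase, lay all below as well (39.1, 41.1 and 31.1 against 25.1, 28.4 and 19.0), with a difference of -0.61 that was -0.21 with the trend removed. Zmat3, an RNA-binding p53 target, lay all above (7.69, 10.9 and 9.39 against 12.98, 12.0 and 17.7), with 0.56 and 0.335. Of the 15 genes of the list, 2 lay all below SMA (13.3%, against 9.81% of all genes) and 1 all above (6.67%, against 6.83%). With the trend removed 1 lay all below (6.67%, against 6.22%) and 2 all above (13.3%, against 5.51%). The median difference over the list was -0.21, with 10 lower, and it was -0.21 with the trend removed. It was -0.0492 without PFT 3, with 9 lower, and -0.0345 without SMA 1.

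Promoter windows were searched for letters that match the element that p53 binds, and those of Cdkn1a, Ccng1 and Bax are printed. In the RefSeq table of windows from 250 bases before to 50 bases after a gene's start (GRCm38.p6), a match to the 10-base p53 half-site was found for 13 of the 40 listed targets that have a window (32.5%), against 2582 of 27025 genes (9.55%). The element is palindromic, so one search covers both strands, and the matches printed do not overlap one another. A pair of matches with at most 13 bases between them was found for Cdkn1a alone among the targets, and for 20 of all genes (0.074%). Capitals mark the matches in the windows of Cdkn1a (chr17:29090729-29091028, plus strand), Ccng1 (chr11:40755237-40755536, minus strand) and Bax (chr7:45466849-45467148, minus strand), each written 5′ to 3′ along the gene. Cdkn1a has another window in the table, chr17:29093519-29093818 on the plus strand, at the start of Cdkn1a-201; it holds 0 matches and is not printed.
Cdkn1a: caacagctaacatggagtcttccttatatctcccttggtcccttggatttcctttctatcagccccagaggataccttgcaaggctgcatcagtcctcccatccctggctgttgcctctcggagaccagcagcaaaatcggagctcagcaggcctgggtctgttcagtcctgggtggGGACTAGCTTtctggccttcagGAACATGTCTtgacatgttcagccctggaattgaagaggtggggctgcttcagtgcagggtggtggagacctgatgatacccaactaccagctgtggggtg
Ccng1: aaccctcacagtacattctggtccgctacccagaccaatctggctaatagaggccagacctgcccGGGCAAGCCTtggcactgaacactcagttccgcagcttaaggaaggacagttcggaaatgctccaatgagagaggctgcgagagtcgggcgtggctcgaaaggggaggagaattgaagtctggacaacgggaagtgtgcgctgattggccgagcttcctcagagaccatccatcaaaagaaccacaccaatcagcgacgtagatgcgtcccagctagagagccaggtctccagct
Bax: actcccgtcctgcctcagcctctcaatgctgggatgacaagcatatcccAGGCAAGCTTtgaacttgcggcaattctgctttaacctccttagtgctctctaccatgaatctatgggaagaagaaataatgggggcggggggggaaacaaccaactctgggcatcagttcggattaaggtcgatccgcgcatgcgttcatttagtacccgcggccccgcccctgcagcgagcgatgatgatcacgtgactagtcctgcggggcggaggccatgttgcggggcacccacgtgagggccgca
A match is a description of letters and not a measured site. Of the 13 tested targets with a match, 10 were lower, with a median difference of -0.25. Of the 27 whose window held no match, 19 were lower, with a median of -0.33. The gene with the paired match (Cdkn1a), and genes with a single match (Ccng1 at 0.53 and Bax at -0.57), thus spanned both signs.

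Among the 13 death genes, 10 had a lower mean. All below SMA lay 4 of the 13 (30.8%, against 9.81% of all genes), and 0 lay all above (against 6.83%). Their median was -0.29, and the same with the trend removed. The median was -0.15 without SMA 1 and -0.51 without SMA 2. Bbc3, encoding the BH3-only protein PUMA, stood at 53.8, 43.5 and 44.0 in SMA and at 33.3, 28.2 and 14.8 in treated libraries, with a difference of -0.93 (SE 0.39) and -0.47 with the trend removed. Bax, the pore-forming protein of the mitochondrial outer membrane, stood at 323, 258 and 255 in SMA and at 212, 208 and 146 in treated libraries, with a difference of -0.57 (SE 0.23) and -0.11 with the trend removed. The groups did not overlap for either gene, and the WT libraries, at 7.58 to 24.0 for Bbc3 and 111 to 198 for Bax, had lower means than the treated ones. Eda2r, a death receptor of the TNF receptor family, stood at 5.63, 4.24 and 4.02 against 2.76, 1.14 and 2.91, and its difference of -0.82 was -1.25 with the trend removed. Bid, which links death receptors to mitochondria, stood at 14.2, 12.9 and 12.0 against 11.3, 8.16 and 5.96. Unadjusted p was 0.0276 for Bbc3, 0.0251 for Bax, 0.0741 for Eda2r and 0.083 for Bid, and no adjusted p was below 0.44.

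Fas and Pmaip1 overlapped widely between the groups. Fas, the death receptor, stood at 44.4, 18.8 and 14.6 in SMA and at 12.98, 22.6 and 49.99 in treated libraries, and its difference of 0.09 changed sign under 3 other scalings (-0.17, -0.05 and -0.01). Pmaip1, encoding the BH3-only protein NOXA, stood at 27.4, 6.29 and 9.31 against 9.63, 14.4 and 21.4 (difference 0.26, SE 0.49), and at -0.22 with the trend removed. SMA 1 was the highest SMA library for Cdkn1a, Bbc3, Bax, Mdm2, Ccng1, Fas and Pmaip1, and PFT 3 was the highest treated library for Mdm2, Ccng1, Fas and Pmaip1 and the lowest for Cdkn1a, Bbc3 and Bax. Fas and Pmaip1 were called against WT in treated libraries (log2 3.37 and 2.78, limma adjusted p = 0.0151 and 0.0237).

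**Figure D2:**
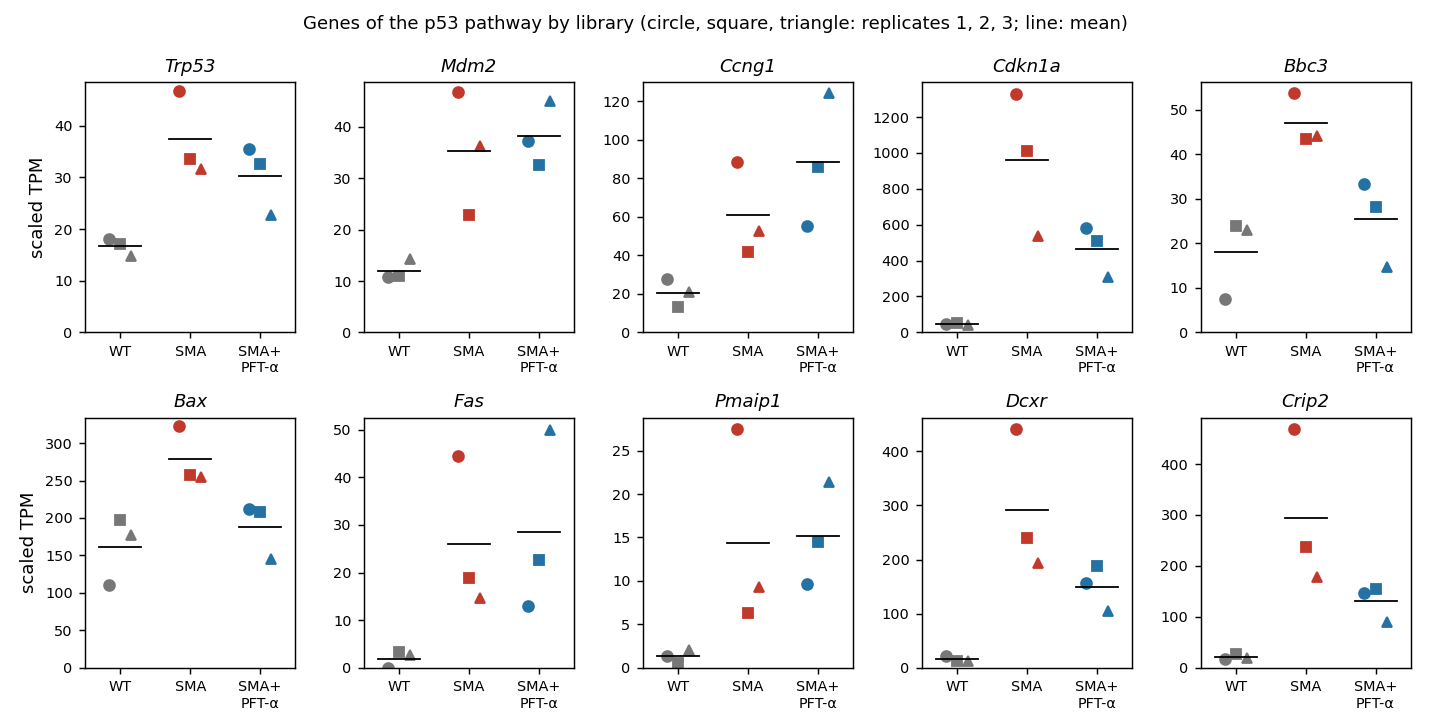
Scaled TPM (vertical axis of each panel, from 0) of 10 genes in the 3 WT, 3 SMA and 3 treated libraries, with the mean as a line. Cdkn1a, Bbc3, Bax, Dcxr and Crip2 have lower treated than SMA means, while Mdm2, Ccng1, Fas and Pmaip1 overlap; for Cdkn1a the treated libraries (310.3 to 582) lie above WT (42.0 to 50.7).

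The 13 tested genes of metabolism and secreted factors had a median of -0.33, with 10 lower. All below SMA lay 3 of them (23.1%, against 9.81% of all genes). With the trend removed the median was -0.0532, and 0 lay all below (against 6.22%). The median was -0.16 without PFT 3 and -0.16 without SMA 1. Ak1, an adenylate kinase, stood at 249 in SMA 1, 145 in SMA 2 and 157 in SMA 3 and at 115, 141 and 40.04 in treated libraries (-1.03, SE 0.40, unadjusted p = 0.0195), with -0.74 after removal of the trend and -0.48 without PFT 3. Phlda3, a repressor of Akt signalling, had a difference of -0.74 (-0.27 with the trend removed, -0.28 without PFT 3) and overlapped between the groups. Slc19a2, a thiamine transporter, had a difference of 0.63, and overlapped too. The 8 DNA repair genes had a median of 0.16, with 3 lower and 5 higher, and that median was 0.0495 with the trend removed and turned without scaling (-0.0702), without PFT 3 (-0.17), without PFT 1 (-0.00347) and without SMA 3 (-0.0314).

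Trp53 itself, encoding p53, stood at 46.8, 33.6 and 31.7 in SMA, at 35.5, 32.5 and 22.7 in treated libraries and at 18.2, 17.2 and 14.7 in WT. The difference of -0.30 (SE 0.29, limma adjusted p = 0.66) was smaller than the spread between libraries, and it was -0.05 with the trend removed. Of the 14 genes for proteins that regulate p53, 6 were lower and 8 higher, with a median of 0.14, and 0.0259 with the trend removed. That median was 0.0658 without SMA 1 and 0.0317 without PFT 2. All below SMA lay 1 of the 14 (7.14%, against 9.81% of all genes) and all above 3 (21.4%, against 6.83%). With the trend removed 0 lay all below and 0 all above (against 6.22% and 5.51% of all genes). Mdm4, the inhibitory partner of Mdm2, lay all above SMA with 12.4, 11.4 and 10.3 against 10.2, 7.99 and 5.52 (0.51), and had 0.07 with the trend removed. Atr, a DNA damage kinase with a GC content of 38.7%, lay all above with 11.9, 14.5 and 18.9 against 4.12, 8.97 and 6.29 (1.14), and had 0.52 with the trend removed. WT 1 was the highest of all 9 of these libraries for both genes, at 21.005 for Mdm4 and 31.2 for Atr.

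Another 8 genes had been chosen as raised in SMA in earlier work on these same libraries, so their direction is not independent evidence. All 8 had a lower mean with Pifithrin-alpha, with a median of -1.04 (-0.73 with the trend removed). All below SMA lay 2 of the 8 (25%, against 9.81% of all genes). Dcxr, a dicarbonyl and xylulose reductase, stood at 441, 239 and 194 in SMA, at 157, 187 and 106 in treated libraries and at 22.1, 12.8 and 13.01 in WT. Crip2, a LIM-domain protein, stood at 468, 237 and 179 in SMA, at 146, 154 and 90.6 in treated libraries and at 16.4, 27.1 and 19.6 in WT. The 3 groups did not overlap for either gene, and both were called in treated libraries against WT (log2 3.16 and 2.57, limma adjusted p = 1.02e-04 and 0.00163). The differences from SMA were -0.90 (SE 0.30) and -1.09 (SE 0.32), each with a limma adjusted p of 0.44, and -0.44 and -0.64 with the trend removed. Bglap2, an osteocalcin gene, stood at 37.2, 10.6 and 2.62 in SMA and at 3.75, 0.952 and 1.07 in treated libraries, and was listed at 0 in WT. Over all genes, 24 were called higher and 3 lower in treated libraries than in WT (0.156% and 0.0194%, with 7.28% of genes at an unadjusted p under 0.05), and 44 and 2 in SMA than in WT (0.285% and 0.013%), with the WT and some of the other libraries shared.

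Of the pathways on which Pifithrin-alpha is known to act besides p53, the heat shock list of 16 genes had a median of 0.47. In it 7 were lower and 9 higher, 0 lay all below SMA, and 1 lay all above (6.25%, against 6.83% of all genes). With the trend removed the median was 0.23, with 2 lower and 14 higher, and without PFT 3 it was 0.13. The inducible chaperones Hspa1a and Hspa1b, the usual readout of heat shock factor activity, stood at 4.14, 2.41 and 3.63 against 2.28, 2.73 and 3.58, and at 10.2, 5.87 and 11.5 against 6.71, 11.7 and 8.14. Both pairs of groups overlapped, with differences of -0.18 and -0.03 that turned to 0.20 and 0.33 with the trend removed. Hsph1, a co-chaperone of the same response, stood at 52.6, 43.8 and 61.3 against 80.1, 58.5 and 139.9 (0.73, SE 0.30, and 0.53 with the trend removed). Chordc1, an Hsp90-binding protein, stood at 35.2, 38.8 and 24.6 against 50.04, 35.3 and 147.9 (0.97, SE 0.39, and 0.46 with the trend removed). In both of these PFT 3 stood far above the rest. Of the aryl hydrocarbon receptor list only 4 of 10 genes passed the filter, and the classic receptor targets Cyp1a1 and Cyp1b1 did not. Tiparp, a receptor target that was tested, lay all above SMA with 9.35, 13.8 and 25.3 against 9.30, 6.77 and 5.03 (1.02, and 0.47 with the trend removed). The 12 glucocorticoid response genes had a median of -0.10, with 7 lower and 1 all below (8.33%, against 9.81% of all genes). With the trend removed their median was -0.0152. That median was -0.48 without SMA 1 and turned to 0.0505 without SMA 2.

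**Figure D3:**
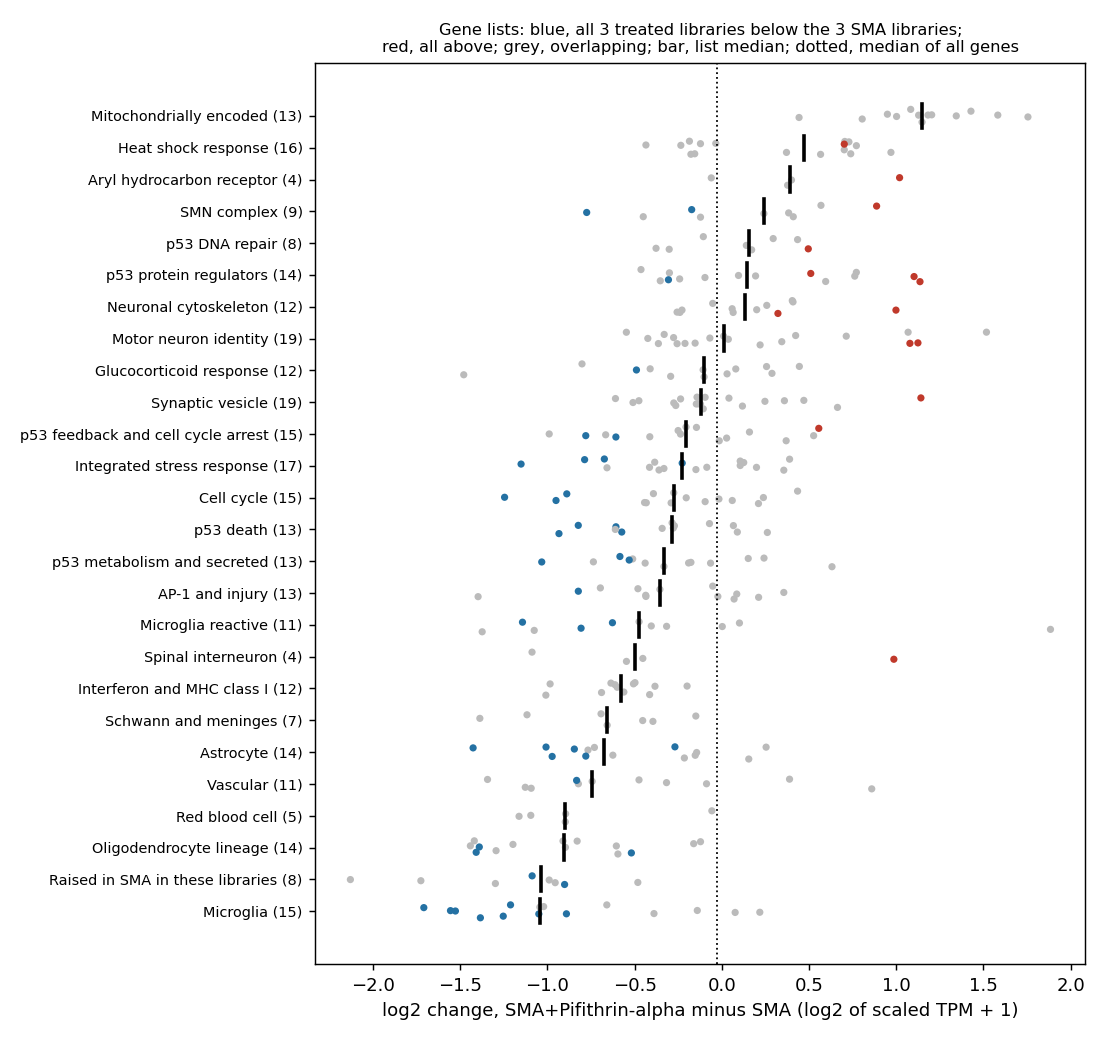
Log2 difference, SMA+Pifithrin-alpha minus SMA (horizontal axis), of each tested gene in 26 lists ordered by their median, with the number tested in brackets, bars for medians and a dotted line at the median of all genes (-0.03). Microglia, the genes raised in SMA and the oligodendrocyte lineage are at the lower end in this setting (-1.04, -1.04 and -0.90) and the mitochondrially encoded genes at the upper end (1.15).

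Microglia are the resident macrophages of the spinal cord, and their complement proteins C1q tag synapses for removal. Microglial genes had a median of -1.04 over the 15 tested genes of 16. Of these, 13 were lower, 8 lay all below SMA (53.3%, against 9.81% of all genes) and 0 all above. No gene of the list had an adjusted p below 0.44. C1qa stood at 16.1, 14.96 and 13.1 in SMA, at 8.85, 4.88 and 1.77 in treated libraries and at 2.27, 5.81 and 4.003 in WT. C1qc stood at 18.2, 26.9 and 23.0 in SMA and at 7.04, 7.31 and 13.2 in treated libraries. C1qb stood at 20.9, 33.7 and 29.5 in SMA and at 19.3, 10.4 and 7.10 in treated libraries. For all 3 subunits the groups did not overlap, with differences of -1.53 (SE 0.40), -1.25 (SE 0.33) and -1.21 (SE 0.39) for C1qa, C1qc and C1qb, and -1.08, -0.86 and -0.82 with the trend removed. Tyrobp, the adaptor of microglial receptors such as Trem2, stood at 23.4, 23.0 and 16.03 against 6.96, 3.04 and 7.87 (-1.71, SE 0.49, and -1.35 with the trend removed). Ly86, which binds a Toll-like receptor homologue and has a low GC content of 45.6%, stood at 9.74, 10.6 and 7.89 against 5.11, 3.02 and 4.07 (-1.05, and -1.30 with the trend removed). P2ry12, a purinergic receptor that marks resting microglia, stood at 6.05, 9.87 and 8.86 against 11.9, 7.40 and 9.97, so the groups overlapped. Its difference of 0.22 turned without scaling (-0.01) and with the trend removed (-0.27).

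Summed over the list, microglial genes held 204 to 241 scaled TPM in SMA, 110.3 to 149 in treated libraries and 101 to 129 in WT, so the SMA and treated libraries did not overlap. The list median was -0.91 without PFT 3, with 14 of 15 lower and 9 all below (60%, against 13.6% of all genes in that setting), and -0.82 with the trend removed, with 15 of 15 lower and 6 all below (40%, against 6.22%). No gene of the list was at 0 in any library. In libraries cut from tissue, fewer microglia around the neurons, less RNA per microglial cell and less surrounding tissue in the cut cannot be told apart. Among genes of reactive microglia, 11 of 15 were tested, 8 were lower and 3 lay all below SMA (27.3%, against 9.81% of all genes). Their median was -0.47, and -0.55 with the trend removed. Apoe, the lipid carrier that astrocytes also make, stood at 2560.5, 4676 and 3308 in SMA and at 2052, 1773 and 1010.4 in treated libraries. Cd63, a tetraspanin of lysosomes and exosomes, stood at 229, 210.1 and 174 against 107, 98.4 and 146. Spp1, which motor neurons also express, had the opposite sign, at 19.9, 38.6 and 140.2 against 113, 108 and 469 (1.88, SE 0.57), and SMA 3 overlapped with the treated libraries.

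Markers of other cells had lower means as well. Of 14 astrocyte genes, 12 were lower and 6 lay all below SMA (42.9%, against 9.81% of all genes). Their median was -0.68, and -0.50 with the trend removed. The median was -0.39 without PFT 3 and -0.41 without SMA 2. Gfap, the intermediate filament of astrocytes, stood at 75.3, 123 and 121 in SMA, at 51.3, 42.7 and 25.01 in treated libraries and at 23.9, 58.4 and 31.7 in WT. Aqp4, the water channel of astrocyte endfeet, stood at 88.8, 186 and 93.0 against 78.0, 49.9 and 51.0. Slc4a4, a bicarbonate cotransporter, and Glul, glutamine synthetase, lay all below as well (-0.85 and -0.78). S100b, a calcium-binding protein, stood at 243, 402 and 368 against 358, 373 and 372 and overlapped. The summed astrocyte list held 1620 to 2308 in SMA and 1565 to 1692 in treated libraries, so these sums overlapped.

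All 14 genes of the oligodendrocyte lineage had a lower mean, with a median of -0.90, and -1.02 with the trend removed. Only 3 lay all below SMA (21.4%, against 9.81% of all genes), and 1 with the trend removed (7.14%, against 6.22%). The median was -1.44 without SMA 1 and -0.49 without SMA 2. Mag, a myelin-associated glycoprotein, stood at 48.2, 144 and 102 in SMA and at 39.5, 26.7 and 35.2 in treated libraries. Cnp, a myelin enzyme, stood at 145, 366 and 227 against 137, 101 and 45.5. Sox10, the transcription factor of the lineage, stood at 11.3, 38.8 and 21.03 against 12.2, 9.90 and 2.72. With the trend removed the differences of Mag, Cnp and Sox10, which were -1.39, -1.41 and -1.44, were -1.03, -1.11 and -1.01. SMA 1 was the lowest SMA library for each of these genes, close to PFT 1, and the summed list ranged widely in SMA, from 931 to 4293, against 831 to 1282 in treated libraries. The vascular list (9 of 11 lower, median -0.74), the red blood cell list (5 of 5 lower, -0.90), and the Schwann and meningeal list (7 of 7 lower, -0.66) had negative medians too, of -0.51, -0.73 and -0.45 with the trend removed. Without SMA 2 these medians were -0.47, -0.43 and -0.22, without PFT 3 the vascular one was -0.38 with 8 of 11 lower, and without PFT 2 and without SMA 1 the red blood cell one was -0.57 and -1.52. Of the vascular genes 1 lay all below SMA (9.09%, against 9.81% of all genes). Of the red blood cell list and of the Schwann and meningeal list 0 did. Summed vascular genes did not overlap, with 160 to 195 in SMA and 79.4 to 116 in treated libraries. By the median over the vascular list, however, SMA 1 (-0.99 from the SMA mean) lay below PFT 1 to PFT 3 (-0.14, -0.63 and -0.97). The 12 tested genes of interferon response and MHC class I, which several of these cell types express, were all lower, with a median of -0.58 (-0.38 with the trend removed, -0.34 without SMA 1) and 0 all below. The part of the glial, vascular and blood markers in the differences of other genes was not tested.

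**Figure D4:**
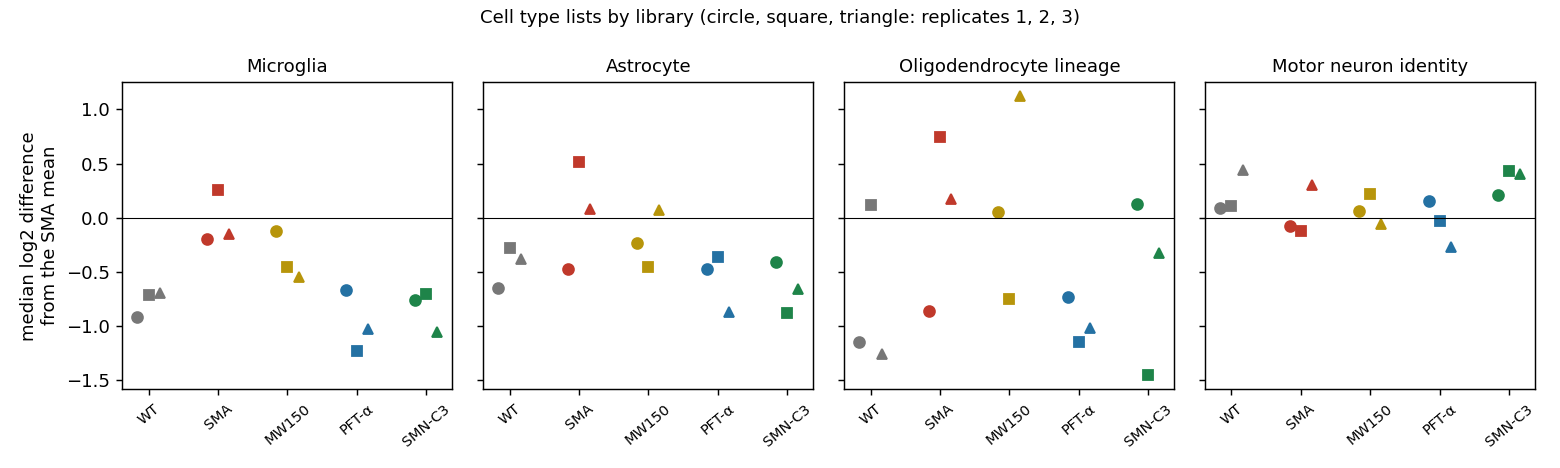
Median log2 difference from the SMA mean (vertical axis) over the genes of 4 cell type lists, 1 point per library, for the 5 groups (MW150, PFT-α and SMN-C3 are SMA pups given that compound). For microglia the treated libraries lie at -0.67, -1.23 and -1.03, below the SMA libraries (-0.20, 0.25 and -0.15), while for the oligodendrocyte lineage SMA 1 (-0.86) lies among them.

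Motor neuron genes showed no common direction. Of the 19 identity genes, 9 were lower and 10 higher, 0 lay all below SMA and 2 all above (10.5%, against 6.83% of all genes). The median of 0.01 turned without scaling (-0.25), without PFT 1 (-0.14), without PFT 2 (-0.00254), without PFT 3 (-4.3e-04) and without SMA 1 (-0.0431). It was 0.25 with the trend removed, when 17 of 19 were higher. Chat, the enzyme that makes acetylcholine, stood at 70.4, 65.3 and 85.6 in SMA, at 90.9, 75.9 and 58.4 in treated libraries and at 96.7, 88.6 and 113 in WT, with a difference of 0.01 (SE 0.22) that turned to -0.25 without scaling. Slc5a7, the high-affinity choline transporter, lay all above SMA with 121, 219 and 355 against 94.3, 97.8 and 106 (1.08), and Esrrg, a nuclear receptor of gamma motor neurons, with 50.5, 62.4 and 93.0 against 19.9, 36.1 and 37.2 (1.12). Chodl and Mmp9 mark fast motor neurons. Chodl stood at 111, 127 and 364 in SMA, at 273, 361 and 1235 in treated libraries and at 694, 512 and 722 in WT. Mmp9, a matrix metalloproteinase, stood at 2.08, 1.89 and 9.67 in SMA, at 6.15, 5.94 and 16.6 in treated libraries and at 18.0, 17.7 and 19.6 in WT. For both genes SMA 3 was high among the SMA libraries and overlapped with PFT 1 and PFT 2, PFT 3 was the highest treated library, and the differences were 1.52 (SE 0.48) and 1.07 (SE 0.51), or 1.09 and 1.25 with the trend removed. Neither was called against WT in SMA (log2 -1.87 and -2.09, limma adjusted p = 0.14 and 0.11).

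Of the synaptic vesicle and cytoskeletal lists, Snap25 and Map2 lay all above SMA. Snap25, a synaptic vesicle fusion protein, stood at 979, 1622 and 3588 against 873, 635 and 956, and Map2, a dendritic microtubule protein, at 105, 138 and 194 against 57.8, 79.3 and 74.95. Their GC contents were 43.4% and 44.0%, and their differences of 1.14 and 0.998 were 0.74 and 0.59 with the trend removed. Of the 19 synaptic vesicle genes, 12 were lower and 7 higher, 0 lay all below SMA and 1 all above (5.26%, against 6.83% of all genes). Of the 12 cytoskeletal genes, 4 were lower and 8 higher, 0 lay all below and 2 all above (16.7%, against 6.83%). Over the whole lists of synaptic vesicle and cytoskeletal genes the medians were -0.12 and 0.13. With the trend removed they were -0.0191 and 0.25, and 10 of the 12 cytoskeletal genes were higher and 3 lay all above (25%, against 5.51% of all genes). Without PFT 3 they were 0.0189 and 0.12, and the cytoskeletal median was 0.21 without SMA 1 and 0.20 without PFT 2. In the SMN complex, which assembles spliceosomal snRNPs, Ddx20 (Gemin3), its helicase, lay all above SMA with 12.3, 9.65 and 11.3 against 7.56, 4.205 and 5.15 (0.89, SE 0.31, and 0.70 with the trend removed). Of the 9 genes of that complex, 4 were lower and 5 higher. All below SMA lay 2 of them (22.2%, against 9.81% of all genes) and all above 1 (11.1%, against 6.83%). With the trend removed 0 lay all below and 1 all above (11.1%, against 5.51%). The median of the complex was 0.24, and 0.0543 with the trend removed and 0.11 without PFT 3.

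The genes with the smallest unadjusted p among those with no overlap and a mean of at least 10 scaled TPM in the higher group were taken, up to 10 in each direction, and 19 are reported. The 9 lower ones were Slc9a3r1, Slc29a1, Ccs, Cyba, Arpc1b, Vim, Ppp1r14b, Rfxank and Ino80b, with differences from -1.98 to -0.97, GC contents from 53.3% to 63.0% and unadjusted p from 1.10e-04 to 0.00114. The 10 higher ones were Rbbp6, Fcho2, Hecw1, Fgf1, Iqcb1, 0610010F05Rik, Htr1b, Ncoa7, D830030K20Rik and Cep295, with differences from 0.94 to 1.80, GC contents from 40.1% to 48.6% and unadjusted p from 2.82e-04 to 0.00259. The limma adjusted p was 0.44 for all 19. With the trend removed the differences ranged from -1.62 to -0.58 and from 0.73 to 1.25, so all 19 kept their sign.

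Some of these genes varied little within each group, which the choice by no overlap and smallest p favours. Slc29a1, the equilibrative nucleoside transporter ENT1, stood at 12.8, 12.9 and 12.7 in SMA, at 4.70, 4.17 and 4.04 in treated libraries and at 8.80, 11.5 and 8.93 in WT (-1.38, SE 0.28, and -1.07 with the trend removed). Ccs, the copper chaperone of superoxide dismutase, stood at 47.8, 57.9 and 52.6 in SMA, at 25.6, 27.5 and 25.8 in treated libraries and at 36.9, 53.3 and 42.6 in WT (-0.97, SE 0.22, and -0.60). Fgf1, a growth factor of motor neurons, stood at 10.4, 9.96 and 12.6 in SMA, at 22.3, 18.7 and 25.02 in treated libraries and at 21.6, 15.5 and 18.9 in WT (0.94, SE 0.24, and 0.84). For Slc29a1 and Ccs the treated libraries were below both other groups, and for Fgf1 they lay within and above the WT range. Arpc1b, a subunit of the actin-nucleating Arp2/3 complex, had the largest of the lower differences (-1.98, SE 0.48), with 49.9, 113 and 76.4 in SMA against 28.2, 20.8 and 10.6. Cyba, a subunit of the NADPH oxidase of phagocytes, stood at 14.0, 19.2 and 19.3 against 10.3, 5.599 and 3.06, and Vim, the filament protein of glia and vessels, at 89.5, 57.6 and 43.8 against 24.0, 34.4 and 23.3. Among the higher genes, Rbbp6, a ubiquitin ligase that binds p53 and Rb, stood at 12.5, 15.3 and 10.7 against 21.3, 42.6 and 55.4 (1.47, SE 0.32), and Htr1b, a serotonin receptor, at 2.82, 2.91 and 5.64 against 6.03, 11.7 and 24.5. PFT 3 was the highest treated library for all 10 of the higher genes named.

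**Figure D5:**
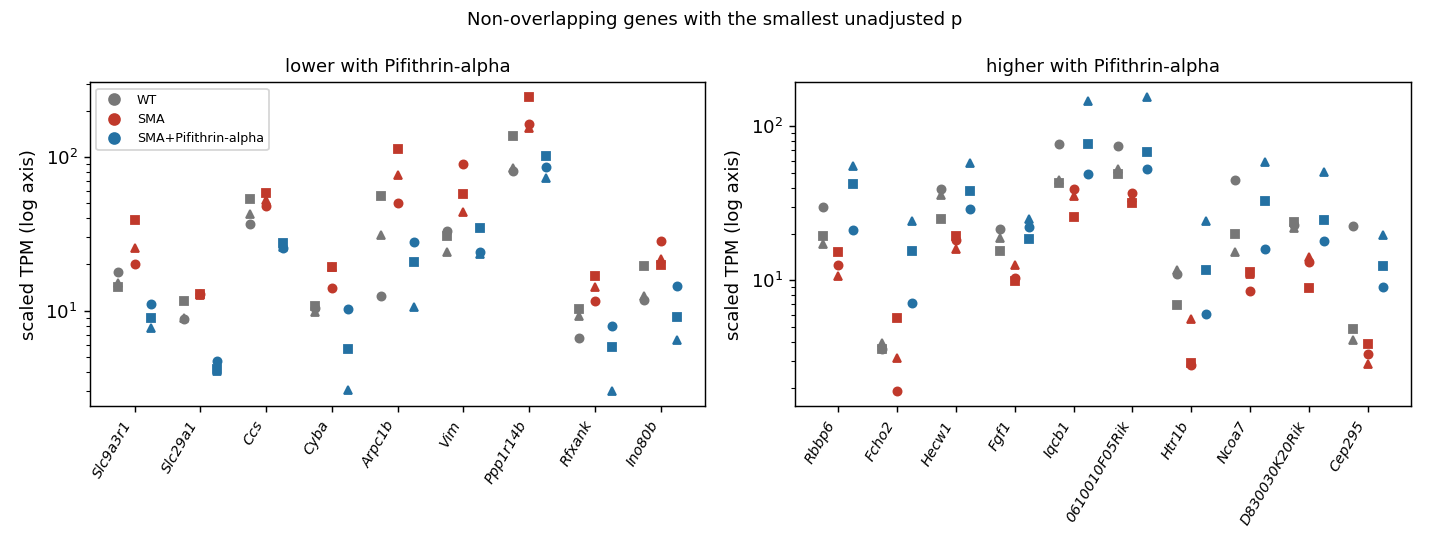
Scaled TPM on a log axis of 9 lower and 10 higher genes with the smallest unadjusted p and no overlap between SMA and treated libraries, in WT, SMA and treated libraries (marker shapes are replicates 1, 2 and 3). Slc29a1 and Ccs form tight groups (12.7 to 12.9 against 4.04 to 4.70 for Slc29a1), and among the higher genes the triangle of PFT 3 is the topmost treated point.

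Set against the other treated groups, 0 of 15425 genes were called between Pifithrin-alpha and MW150 or between Pifithrin-alpha and SMN-C3 with limma (0% in each direction), and 1308 (8.48%) and 1568 (10.2%) had an unadjusted p under 0.05. The lists showed their own differences in those comparisons. The median of the feedback and arrest targets was 0.04 against MW150 and 0.61 against SMN-C3, and that of the death genes 0.03 and 0.46. The microglial median was -0.54 against MW150 and 0.02 against SMN-C3.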

How the data were processed

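RNA-seq of 15 libraries was used, 3 in each of 5 groups. The authors deposited TPM values per gene and per transcript, made with kallisto 0.44.0 on GRCm38.p6 or mm10 per the submitters' processing notes, which also name DESeq2 with no role given; the annotation release is not given in the sources used here. Transcript identifiers matched GENCODE M21 for 116728 of 118489 transcripts (98.5%), and coordinates, length and GC content come from it.

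Each library was divided by its median ratio to the gene-wise geometric mean over 13320 genes above 0 in all libraries. Genes with at least 1 TPM in 3 libraries were kept, and log2(scaled TPM + 1) was fitted with limma 3.58.1 (R 4.3.3), trended variances, with 1 mean per group over all 15 libraries. Tests are two-sided, and p was adjusted over all tested genes by Benjamini-Hochberg. Whether same-numbered SMA and treated libraries deviated together was checked and is given with the alternatives. The script was tested on simulated data.

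The comparison, its 26 lists and the named genes were chosen with earlier results of these data known. Named genes are a fixed set of p53, complement and stress genes, called genes, the 10 non-overlapping genes per direction with the smallest p, and up to 6 genes per list; some genes that this rule names are not reported here. Whether counting used strand is not given in the sources used here, so reads of genes that overlap on either strand, or of close paralogs such as Hspa1a and Hspa1b, may be split between them. Alternatives changed the scaling, pseudocount, filter, libraries and covariates. After the data were seen, 2 more were added: removal of a trend on length and GC, and leaving out both libraries of highest mitochondrial share. Figures were made with matplotlib 3.10.9 in Python 3.11.15.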

Additional observations from a re-analysis of the deposited data

How the results depend on the processing

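Genes called numbered 1, and 0 with a pseudocount of 0.1, with a filter at a mean of 5 TPM, in a fit of only the 6 libraries and with the length and GC trend removed, 2 without a filter on low values, and 0 to 1 when each replicate was left out in turn; each count of 0 came from limma. Without SMA replicate 1, 2 or 3 the call was lost because Traj45 no longer passed the filter. Transcripts called numbered 2, 1 with a pseudocount of 0.1, and 0 to 16 with replicates left out: 0 without any one SMA library, 16 without SMA+Pifithrin-alpha replicate 1, and 1 without replicate 2 or 3 of that group. The replicate block left 1 gene and 2 transcripts called. Same-numbered SMA and treated libraries did not deviate together (r of -0.09, -0.01 and 0.04), and no treated library correlated best with its own number. The block changed no call. Whether same-numbered libraries shared a litter or a batch cannot be told from these values, and the numbers are used here only as names.

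Without scaling, list medians were -0.54 (p53 death, -0.29 in the main fit), -0.0702 (p53 DNA repair, 0.16) and -0.25 (motor neuron identity, 0.01), and the differences of Mdm2 (-0.10), Fas (-0.17), P2ry12 (-0.0131), S100b (-0.11) and Chat (-0.25) turned negative. With TPM rescaled without mitochondrially encoded genes, Fas (-0.0524) and Chat (-0.13) turned, with quantile normalization Fas (-0.014) and Chat (-0.0611), and with array weights Fas (-0.0446). The microglial median was -0.67 with a pseudocount of 5. With the mitochondrial share as a term, the medians of p53 DNA repair, p53 metabolism and motor neuron identity were -0.23, 0.0908 and 0.21, Pmaip1 turned to -0.0183 and Hspa1b to 0.0341.

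With the length and GC trend removed, the medians of p53 metabolism and motor neuron identity were -0.0532 and 0.25, and Ccng1 (-0.018), Fas (-0.29), Pmaip1 (-0.22), P2ry12 (-0.27), Hspa1a (0.20) and Hspa1b (0.33) turned. Without both libraries of highest mitochondrial share, p53 DNA repair had -0.17, Fas -0.40, Pmaip1 -0.00262 and Hspa1b 0.00758. Leaving out each replicate in turn gave ranges of -0.51 to -0.15 for p53 death, -0.17 to 0.29 for p53 DNA repair, -0.12 to 0.39 for Mdm2, -0.40 to 0.55 for Fas, -0.15 to 0.83 for Pmaip1, -0.0637 to 0.29 for S100b, -0.14 to 0.18 for Chat and -0.30 to 0.13 for Hspa1b. The cause of these changes was not tested. Every other gene named in the text kept its sign in every alternative in which it was fitted.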
